A study of Mus musculus with 2 samples.

Results

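The 7 genes that encode the subunits of the NMDA receptor were examined in a DNase-seq map of the adult mouse hippocampus. They were chosen by name (Grin1, Grin2a, Grin2b, Grin2c, Grin2d, Grin3a and Grin3b) from 21827 protein-coding genes, and each was taken as the gene body plus 10 kb on both sides (GENCODE M21, mm10). These regions held 121 of 144270 peaks in replicate 1 and 153 of 124426 in replicate 2. DNase I cuts DNA that is not covered by nucleosomes or bound proteins, so a peak is a stretch where cuts cluster and a footprint is a short protected stretch within it. The study had 1 group of 2 biological replicates and no other condition. Both replicates came from male B6CASTF1/J mice (a cross of C57BL/6J and CAST/EiJ) aged 8 to 10 months, and each pooled 2 biosamples. The donor label is the same for both, the labels do not say whether any animal went into both pools, and the tissue label names a layer of the hippocampus without saying which. Differences between the replicates therefore measure only the spread between these 2 pools, which may be technical.

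NMDA receptors are glutamate-gated ion channels that let calcium into the postsynaptic neuron when glutamate and a co-agonist (glycine or D-serine) bind while the membrane is depolarised, and in the hippocampus they are best known for their part in long-term potentiation. Every receptor contains GluN1, the obligatory glycine-binding subunit made by Grin1. The glutamate-binding GluN2 subunits (Grin2a to Grin2d) set the channel's kinetics and block by magnesium, and the glycine-binding GluN3 subunits (Grin3a and Grin3b) lower its calcium permeability. GluN2A and GluN2B are the main GluN2 subunits of the adult forebrain, GluN2C is best known from cerebellar granule cells, and GluN2D from the diencephalon, the brainstem and interneurons.

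A promoter peak was a peak that touched the 1000 bp on either side of a start site of a protein-coding transcript. By this measure 5 of the 7 were open in both replicates (Grin1, Grin2a, Grin2b, Grin2d and Grin3a), and Grin2c and Grin3b had none in either. The share of all 21827 protein-coding genes with such a peak in each replicate was 62.6%. The bases just before the RefSeq start site (build GRCm38.p6) are shown for the 1 member with the tallest promoter peak and for the 2 members without a promoter peak, with every CG in capitals, because the windows differ in CG content. The Grin1 window is chr2:25319188-25319437 (minus strand), the Grin2c window chr11:115267244-115267493 (minus strand) and the Grin3b window chr10:79970474-79970723 (plus strand).
Grin1: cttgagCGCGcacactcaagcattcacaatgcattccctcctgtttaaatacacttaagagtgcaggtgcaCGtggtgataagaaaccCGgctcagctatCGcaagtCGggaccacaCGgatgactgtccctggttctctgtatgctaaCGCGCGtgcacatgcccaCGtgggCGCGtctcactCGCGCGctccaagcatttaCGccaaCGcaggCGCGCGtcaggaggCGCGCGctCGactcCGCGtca
Grin2c: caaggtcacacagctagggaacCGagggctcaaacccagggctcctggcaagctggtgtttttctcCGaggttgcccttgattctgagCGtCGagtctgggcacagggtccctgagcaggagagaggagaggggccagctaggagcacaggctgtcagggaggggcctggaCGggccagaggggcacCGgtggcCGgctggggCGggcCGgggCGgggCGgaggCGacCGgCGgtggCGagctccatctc
Grin3b: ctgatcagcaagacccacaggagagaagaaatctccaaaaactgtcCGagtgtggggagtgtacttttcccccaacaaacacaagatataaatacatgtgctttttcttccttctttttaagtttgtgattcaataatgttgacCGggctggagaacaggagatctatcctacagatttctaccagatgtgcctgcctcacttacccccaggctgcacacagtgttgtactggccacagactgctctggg
The Grin1 window held 27 CG in 250 bases, with an observed over expected CpG ratio of 1.26 and 58.8% G or C. The Grin2c window held 15 CG, with a ratio of 0.536 and 68.8% G or C. The Grin3b window held 2 CG, with a ratio of 0.152. Over the 32851 promoters of the RefSeq table the median was 6 CG and a ratio of 0.373, so the closed Grin2c window was richer in CG than the median promoter and the closed Grin3b window poorer. The Grin1 window touched 1 peak and 3 footprints in each replicate, and the Grin2c and Grin3b windows touched neither. The RefSeq table held 4 of the 7 members, and Grin2a, Grin2b and Grin3a are not in it. The remaining member, Grin2d, is not shown. Its RefSeq window, taken with some bases after the start, touched no peak in either replicate. Grin2d was counted as open in both replicates by a peak over a coding exon, 968 bp from the nearest start. For Grin2d the RefSeq window and the open call thus differ.

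**Figure D1:**
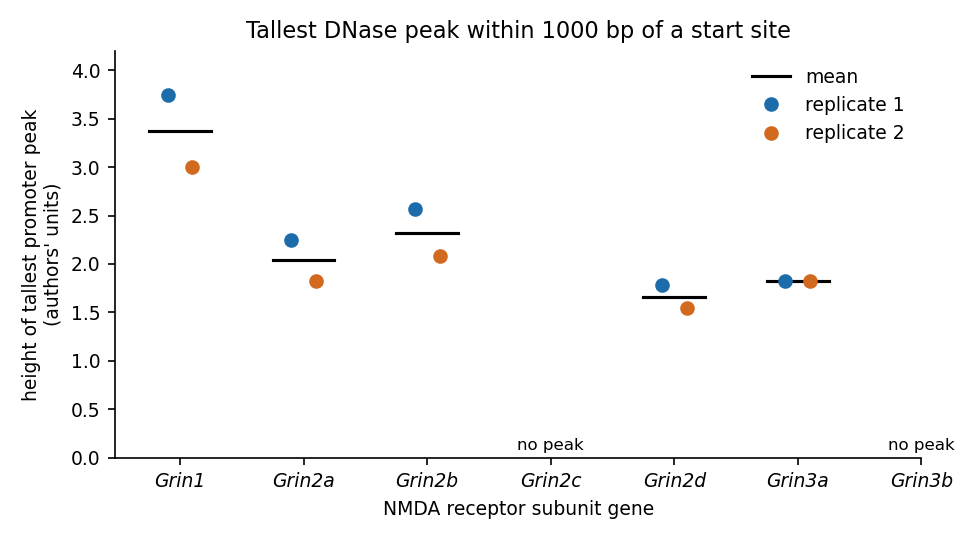
Height of the tallest peak within 1000 bp of a start site for each NMDA receptor subunit gene, in the authors' units (vertical axis), with 1 point per replicate and a line at their mean. Grin1 is highest at 3.75 and 2.996, and Grin2c and Grin3b have no promoter peak in either replicate.

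Grin1 (ENSMUSG00000026959.13, chr2:25291181-25319187, minus strand), the obligatory subunit, had the tallest promoter peak of the 7 genes. Its height was 3.75 in replicate 1 and 2.996 in replicate 2 (3.37 ± 0.531, SD, n = 2), in the authors' units, whose scale is not stated. Both values were above those of every other member promoter in both replicates. For scale, the median promoter height among all genes with a promoter peak was 3.44 in replicate 1 and 2.83 in replicate 2, so Grin1 was close to the middle of open promoters and the other 4 open members were below it. The values do not separate fewer cells with an open site from a site that is less open in each cell.

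Among the GluN2 genes, Grin2b had a promoter height of 2.57 in replicate 1 and 2.08 in replicate 2 (2.32 ± 0.344). Grin2a had 2.24 and 1.83 (2.04 ± 0.295). Within each replicate Grin2b was the higher, by 1.14-fold both times, while each gene differed by more than that between the replicates. Grin2d had 1.78 and 1.54 (1.66 ± 0.166), in a peak over a coding exon 968 bp from the nearest start, and with a window of 500 bp it was no longer counted as a promoter peak. Grin3a, the GluN3 gene with an open promoter, had 1.82 in both replicates (1.82 ± 0.00255), below Grin2a and above Grin2d within each replicate. In replicate 2 it was nearly level with Grin2a, and in replicate 1 with Grin2d. The order Grin1, Grin2b, Grin2a, Grin3a, Grin2d was the same in both replicates, which are too few for a test. Every one of these 5 promoters was also found with the shorter, stricter peak lists.

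Most of the open promoters held several peaks. Grin1 had 2 promoter peaks in replicate 1 and 4 in replicate 2. Grin2a (ENSMUSG00000059003.12, chr16:9567898-9995560, minus strand) had 6 promoter peaks in replicate 1 and 7 in replicate 2. Its tallest lay in an intron 1.69 kb inside the gene in replicate 1, and a second one of height 2.04 and 1.65 lay at the upstream edge of the gene. Grin2b (ENSMUSG00000030209.14, chr6:135713233-136173511, minus strand) had 4 promoter peaks in each replicate. Its tallest also lay in an intron, 1.19 kb inside the gene, and the peak just upstream of the gene was 2.27 in replicate 1 and 1.25 in replicate 2. Grin3a (ENSMUSG00000039579.15, chr4:49661611-49845744, minus strand) had 3 in each replicate, and the tallest, at its upstream edge, held 13 footprints in replicate 1 and 9 in replicate 2. Grin2d (ENSMUSG00000002771.12, chr7:45831883-45878378, minus strand) had 3 promoter peaks in replicate 1 and 1 in replicate 2, and those found in replicate 1 alone were low, at 0.4003 and 0.427.

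Outside promoters, the peaks below were chosen as the tallest one of each gene that both replicates shared, with a second from Grin2a that was taller in replicate 1 and chosen after its values were seen. The open Grin1 and Grin2d promoter peaks are shown with them. Capitals mark bases inside a footprint of both replicates, and sequences are from GRCm38, on the strand of the gene.
Grin1 promoter, upstream part, chr2:25319188-25319340: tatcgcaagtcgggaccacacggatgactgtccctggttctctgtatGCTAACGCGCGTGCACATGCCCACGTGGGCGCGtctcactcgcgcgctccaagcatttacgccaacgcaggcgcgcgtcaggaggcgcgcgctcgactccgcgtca
Grin1 intron, chr2:25292981-25293125: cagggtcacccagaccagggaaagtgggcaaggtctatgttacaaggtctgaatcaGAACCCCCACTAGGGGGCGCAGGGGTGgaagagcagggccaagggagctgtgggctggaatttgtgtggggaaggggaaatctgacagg
Grin2a intron, chr16:9768461-9768740: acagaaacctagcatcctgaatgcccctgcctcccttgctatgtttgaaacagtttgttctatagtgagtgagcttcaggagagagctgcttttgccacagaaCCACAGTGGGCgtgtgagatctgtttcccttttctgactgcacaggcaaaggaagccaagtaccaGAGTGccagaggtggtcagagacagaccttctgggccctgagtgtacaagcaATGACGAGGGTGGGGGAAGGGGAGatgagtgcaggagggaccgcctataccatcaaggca
Grin2a intron, chr16:9851661-9851880: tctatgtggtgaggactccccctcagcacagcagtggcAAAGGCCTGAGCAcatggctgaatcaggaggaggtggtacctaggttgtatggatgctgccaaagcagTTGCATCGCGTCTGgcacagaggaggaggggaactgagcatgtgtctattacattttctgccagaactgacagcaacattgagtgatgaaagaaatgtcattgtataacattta
Grin2b intron, chr6:135907641-135907840: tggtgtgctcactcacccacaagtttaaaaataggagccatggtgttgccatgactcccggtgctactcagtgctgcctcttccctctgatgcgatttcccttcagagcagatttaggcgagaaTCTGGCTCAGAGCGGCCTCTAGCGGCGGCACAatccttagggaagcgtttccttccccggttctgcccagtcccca
Grin2c upstream, chr11:115270581-115270780: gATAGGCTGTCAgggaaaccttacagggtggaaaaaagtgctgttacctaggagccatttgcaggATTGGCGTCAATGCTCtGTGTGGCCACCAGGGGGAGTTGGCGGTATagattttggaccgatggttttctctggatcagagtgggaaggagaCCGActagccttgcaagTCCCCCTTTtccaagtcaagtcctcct
Grin2d coding exon and flanking bases, chr7:45866021-45866300: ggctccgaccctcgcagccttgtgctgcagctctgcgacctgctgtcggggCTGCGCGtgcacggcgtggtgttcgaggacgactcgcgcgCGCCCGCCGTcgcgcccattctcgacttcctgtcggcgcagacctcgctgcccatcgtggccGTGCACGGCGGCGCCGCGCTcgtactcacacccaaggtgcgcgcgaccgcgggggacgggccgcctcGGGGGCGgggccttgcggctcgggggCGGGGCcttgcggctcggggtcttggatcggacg
Grin3a intron, chr4:49688761-49688940: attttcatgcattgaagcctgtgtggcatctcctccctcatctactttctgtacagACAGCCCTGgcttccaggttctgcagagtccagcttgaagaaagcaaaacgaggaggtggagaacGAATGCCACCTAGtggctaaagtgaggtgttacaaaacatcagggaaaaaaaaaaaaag
Grin3b downstream, chr10:79987101-79987320: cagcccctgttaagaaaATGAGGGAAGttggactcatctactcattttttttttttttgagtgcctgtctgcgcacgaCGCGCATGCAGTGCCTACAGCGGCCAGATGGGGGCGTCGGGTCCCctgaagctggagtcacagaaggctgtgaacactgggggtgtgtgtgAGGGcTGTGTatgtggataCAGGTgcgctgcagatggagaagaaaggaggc
The protected stretches differed in extent: 69 of 200 bases of the Grin2c element (34.5%) lay in footprints of both replicates, against 22 of 180 (12.2%) of the Grin3a element. In the upstream part of the Grin1 promoter peak 33 of 153 bases did, as a run with several CG.

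Apart from the Kdelr1 promoter, which lies within the annotated span of Grin2d, the tallest peak inside any of the 7 genes lay in Grin2b, 266 kb from its 5′ end in an intron. Its height was 4.61 in replicate 1 and 3.02 in replicate 2 (3.82 ± 1.13), above the Grin2b promoter in both replicates. Around it, 3 further intronic Grin2b peaks had heights of 2.35 and 2.31 (at 314 kb), 2.06 and 1.57 (at 274 kb), and 1.99 and 1.93 (at 307 kb), so the middle of the gene held a group of tall elements in both pools. In Grin2a, the intronic element at 227 kb had heights of 2.74 and 2.93 (2.83 ± 0.133) and that at 144 kb had 3.05 and 1.96 (2.50 ± 0.765). The Grin2a element at 242 kb had 2.59 and 2.38, and that at 22.7 kb had 2.36 and 2.03. Each of these 4 Grin2a elements was above the Grin2a promoter of the same replicate.

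The other members had fewer or lower elements of their own. In Grin1 the shared intronic peak near the 3′ end had heights of 1.51 and 1.41 (1.46 ± 0.0674). In Grin3a the tallest intronic peak was 1.01 in replicate 1 and 0.988 in replicate 2, 157 kb into the gene. Grin2c (ENSMUSG00000020734.13, chr11:115249169-115267243, minus strand) had no peak in its body. Its region held 2 peaks in each replicate, both upstream: one in an intron of the neighbouring gene Fdxr, of height 2.93 and 2.54 (2.74 ± 0.280), and one at the promoter of Fdxr itself, which encodes ferredoxin reductase, of height 9.02 and 6.96. Grin3b (ENSMUSG00000035745.9, chr10:79970715-79977190, plus strand) had no peak in its body either. All 5 peaks of replicate 1 and 7 of replicate 2 in its region lay downstream of the gene, and the tallest, 8.32 and 6.16, was at the promoter of Tmem259. The last of them, shown above, had heights of 2.40 and 2.98 (2.69 ± 0.411). Peaks in the 2 genes without an open promoter were thus all in the flanks, where they cannot be assigned to the member rather than to a neighbour. The same holds for most tall peaks of the Grin2d region, which lay at the promoters of Grwd1 (3.47 and 2.63) and Kdelr1 (3.83 and 3.55).

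Matches to 13 short strings were counted on both strands, in the RefSeq promoter windows (250 bases before to 50 after a start) and in the 200 bp at the centre of shared peaks: TTCAGCACC (part of the REST site), CCACNAGG (CTCF core), GGGCGG (SP/KLF), GCGTGGGCG (EGR), GCGCANGCG (NRF1), TGACGTCA (CRE), TGANTCA (AP-1), TAAAAATA (MEF2), CAGATG (bHLH), GTTGCCATG (RFX), TTGGCA (part of the NFI site), CCGGAAGT (ETS) and TCACACCT (T-box). The GGGCGG string can lie within other GC-rich sites. GGGCGG was in 2 of the 4 member promoters of the table, Grin1 and Grin2c, and in 35.7% of all promoters, so it was present in an open and in a closed one. The CTCF core was in 5 of 70 shared member peaks of replicate 1 (7.14%) and 5 of 74 of replicate 2 (6.76%), beside 6.56% and 6.496% of all shared peaks. Of the sequences shown, 3 held it: all 8 letters lay in footprints of both replicates in the Grin1 intronic and the Grin2c upstream element, and 5 of 8 did in the Grin3a element. CTCF is the factor known for insulation and loop anchoring. The Grin2b element held the MEF2 and the RFX string, with no letter of either in a footprint of both replicates, and 1 of the 2 bHLH strings of the Grin3b element lay wholly inside one. The RFX string was in 3 of 70 shared member peaks of replicate 1 (4.29%) and in 1.14% of all, and the bHLH string in 18 (25.7%) and in 26.3% of all. A match is a description of the letters and shows no binding.

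**Figure D2:**
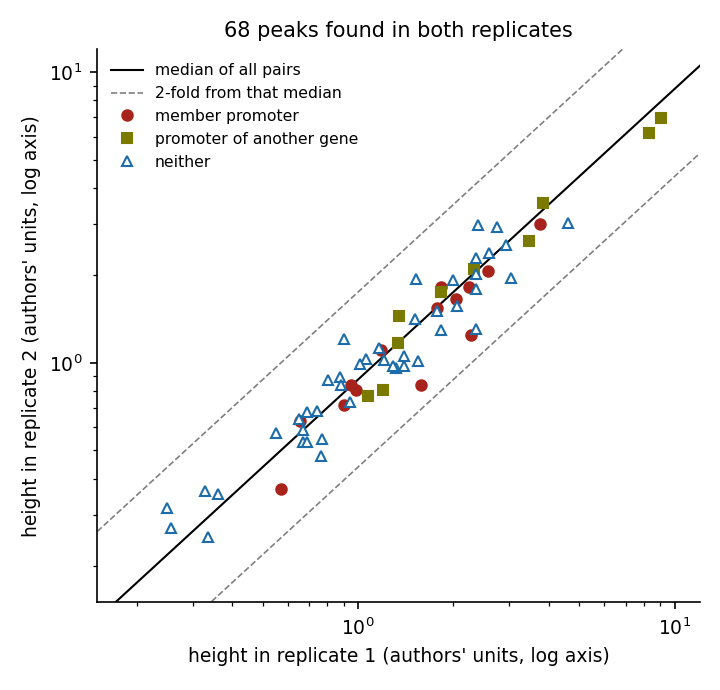
Height in replicate 1 (horizontal axis) against replicate 2 (vertical axis) of the 68 peaks of the NMDA receptor regions paired between the replicates, both on log axes in the authors' units, by the kind of site. The solid line is the median ratio of all pairs in the genome and the dashed lines are 2-fold from it, and all 68 points lie between the dashed lines.

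Peaks that both replicates shared had similar heights. The 68 pairs of peaks in the 7 regions had a median log2 ratio (replicate 2 over replicate 1, less the median of all pairs in the genome) of -0.02, with an SD of 0.286 over pairs, and 37 were lower in replicate 2. The SD over all pairs in the genome was 0.347. None of the 68 was past 2-fold, but only 0.577% of all 101938 pairs passed that level, so this does not set the members apart. The widest differences among members were in Grin1, where an intronic promoter-window peak was 1.58 in replicate 1 and 0.839 in replicate 2 (scaled log2 ratio -0.72), and in the upstream Grin2b promoter peak (-0.68). In the opposite direction the widest was a Grin2a pair at 0.60. By gene, the median scaled log2 ratio ran from -0.12 in Grin2a (28 pairs) to 0.16 in Grin3a (8 pairs).

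Footprints of these regions were found again in the other replicate about as often as elsewhere. The shared peaks held 199 footprints in replicate 1 and 224 in replicate 2, or 2.84 and 3.03 per peak beside 2.62 and 2.61 over all shared peaks. Of these, 60.3% and 59.4% overlapped a footprint of the other replicate, beside 56.6% and 56.4% over all. At least 1 footprint lay in 80.0% of the shared member peaks in replicate 1 and 87.8% in replicate 2. Over all shared peaks these shares were 87.6% and 87.0%.

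By gene, the share of peaks found in both replicates was lowest in Grin2b in replicate 1 (16 of 44) and in Grin2a in replicate 2 (29 of 93). Of the peaks in the 7 regions, 70 of 121 in replicate 1 (57.9%) and 74 of 153 in replicate 2 (48.4%) overlapped a peak of the other replicate, while over the genome the shares were 72.3% in replicate 1 and 84.1% in replicate 2. Grin2a and Grin2b together shared 45 of 91 peaks (49.5%) in replicate 1 and 45 of 111 (40.5%) in replicate 2. Grin2b alone shared 16 of 18 in replicate 2, and Grin2a alone 29 of 47 in replicate 1. The other 5 genes shared 25 of 30 (83.3%) and 29 of 42 (69.0%), and every peak of Grin1, Grin2c and Grin3b in replicate 1 was shared. In replicate 2 Grin1 shared 8 of 17 (47.1%). Among peaks of height 0.4 or more, a threshold chosen after the values were seen, 71.1% and 79.1% of the member peaks were shared, beside 83.9% and 91.9% of all such peaks. Low peaks (under 0.4) numbered 31 of the 121 and 67 of the 153 member peaks, and 6 of them were shared in each replicate (19.4% and 8.96%), beside 38.3% and 59.1% of all low peaks. In the genome 25.4% and 23.9% of peaks were that low. Most member peaks were intronic, 94 in replicate 1 and 114 in replicate 2, and coding exons held 3 and 9. Most of the intronic ones lay in the longest genes, with 45 and 87 in Grin2a and 41 and 15 in Grin2b. The shares of such positions over all peaks are not given here, so these counts are a description.

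**Figure D3:**
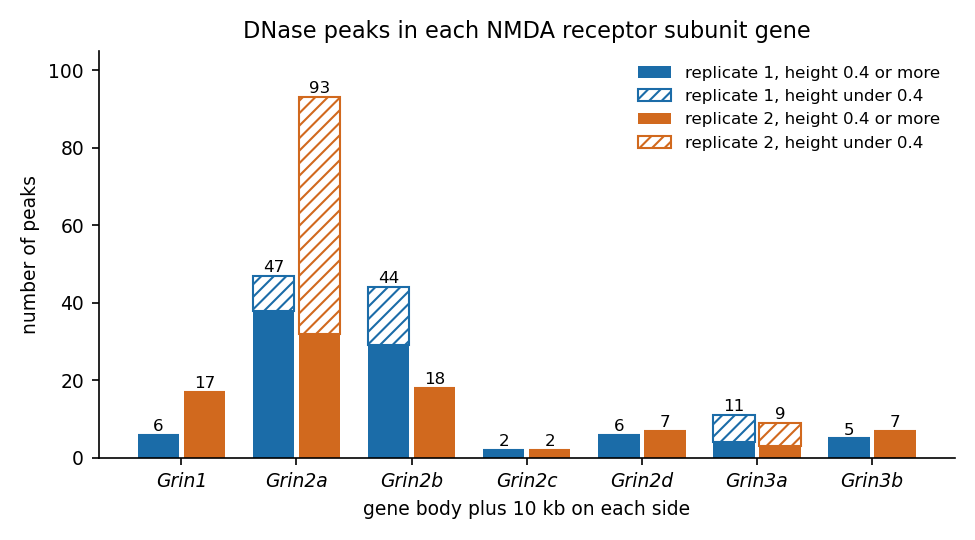
Number of peaks (vertical axis) in each NMDA receptor subunit gene with 10 kb on each side, by replicate, with filled bars for peaks of height 0.4 or more and hatched bars for lower ones. The bar of Grin2a in replicate 2 (93) is mostly hatched, while the 17 peaks of Grin1 in replicate 2 are all filled.

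The numbers of peaks differed most between the replicates in 3 genes. Grin1 had 6 peaks in replicate 1 and 17 in replicate 2, so replicate 2 had 2.83-fold as many and held 73.9% of them (Wilson 95% interval 53.5 to 87.5%). Grin2a had 47 and 93, a 1.98-fold excess in replicate 2 (66.4%, interval 58.3 to 73.7%). Grin2b had 44 and 18, a 2.44-fold excess in replicate 1 (share of replicate 2 29.0%, interval 19.2 to 41.3%). These intervals cover counting error only, and neighbouring peaks are not independent, so they do not test a difference between the replicates. The imbalance of Grin2a and Grin2b was known before the intervals were computed. The main GluN2 genes thus departed in opposite directions. Peaks that overlapped another of the same list numbered 0 and 4 in Grin1, 2 and 6 in Grin2a, and 4 and 0 in Grin2b (replicates 1 and 2). The peak numbers of the other genes were 2 and 2 (Grin2c), 6 and 7 (Grin2d), 11 and 9 (Grin3a) and 5 and 7 (Grin3b).

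Of the 3046 protein-coding genes with at least 20 peaks in both replicates together, 1.61% had at least 2-fold more in replicate 2 and 5.84% at least 2-fold more in replicate 1. The median share of replicate 2 was 46.2%, with a 5th to 95th percentile of 32.3 to 57.1%. Of the 4 members with that many peaks, Grin1 passed 2-fold towards replicate 2, Grin2b passed it towards replicate 1, Grin2a lay just under it, and Grin3a (45.0%) lay near the median. In density, Grin2a had 1.05 peaks per 10 kb in replicate 1 and 2.08 in replicate 2, and Grin2b 0.916 and 0.375. Among the 390 genes of 400 kb or more the medians were 0.532 and 0.439, so Grin2a was denser than the median long gene in both replicates and Grin2b in replicate 1 alone.

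**Figure D4:**
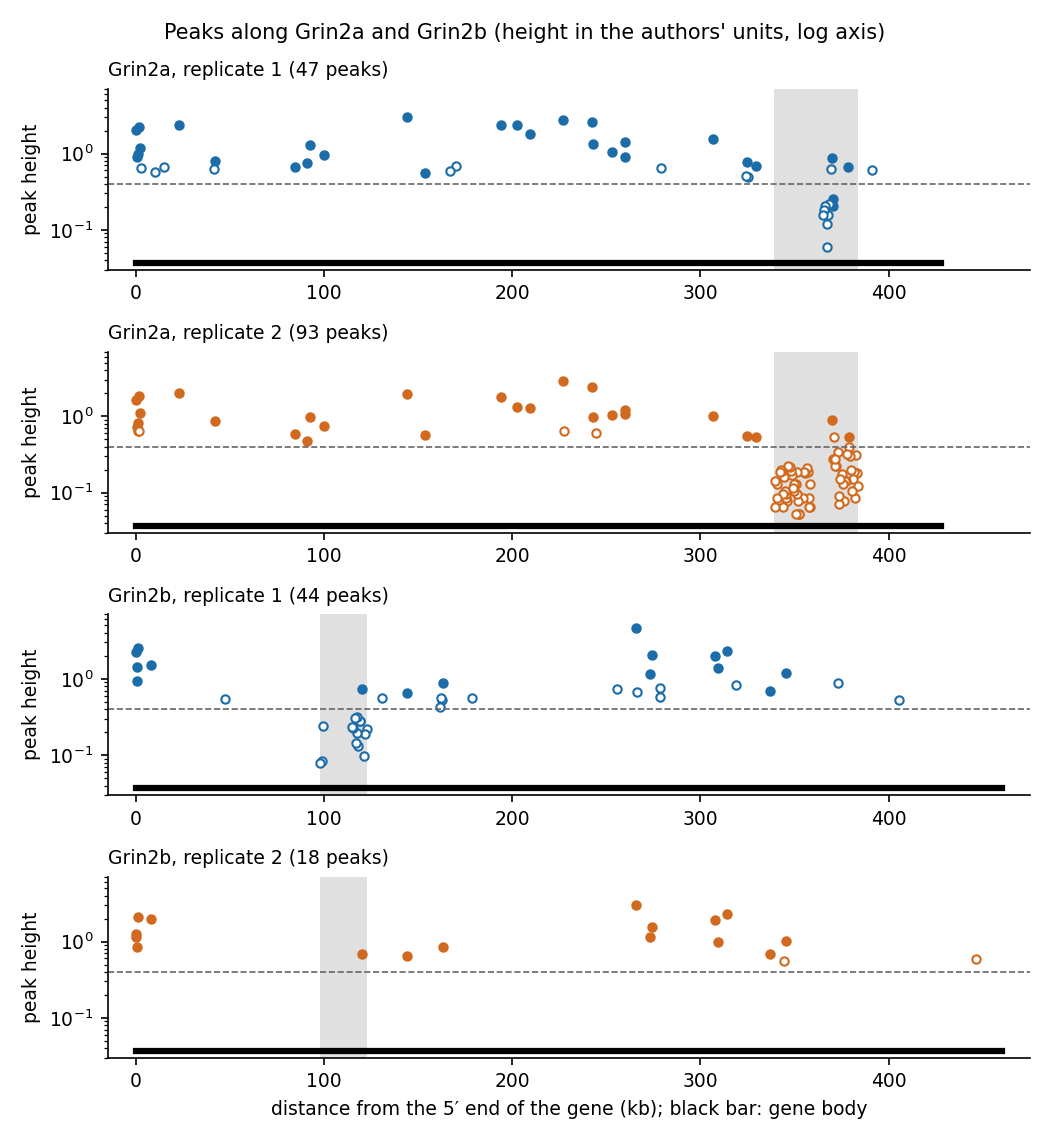
Peaks along Grin2a and Grin2b in each replicate, by distance from the 5′ end of the gene (horizontal axis, kb) and height (vertical axis, log scale, authors' units). Filled points are shared with the other replicate, open points are not, the dashed line is a height of 0.4 and the grey band is the run of low peaks, which holds 64 and 12 peaks in Grin2a (replicates 2 and 1) and 1 and 16 in Grin2b.

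In Grin2a the excess lay in 1 stretch. A run of low peaks was defined as at least 10 peaks under 0.4 with gaps of at most 20 kb. This rule was chosen after the values were seen. Such a run spanned chr16:9611781-9656300 in replicate 2, 339 to 384 kb from the 5′ end, over introns and coding exons. It held 64 peaks in replicate 2 and 12 in replicate 1, of which 3 and 4 were shared. Its 61 low peaks had heights from 0.0517 to 0.394 with a median of 0.142, or 22 of the smallest steps between heights. The run was the 2nd by number of low peaks among 72 such runs in replicate 2. Outside it Grin2a had 35 peaks in replicate 1 and 29 in replicate 2. Of these, 25 (71.4%) and 26 (89.7%) were shared, beside 72.3% and 84.1% over the genome. The share of replicate 2 outside the run was 45.3%, close to the median of 46.2% over genes with at least 20 peaks. That median was taken with runs kept in. Leaving out a run defined from replicate 2 lowers the share by construction.

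Of the 64 peaks in the Grin2a run, 50 (78.1%) overlapped the stricter peak list of replicate 2, beside 58.4% of all peaks and 14.4% of all low peaks of that replicate. Intervals at a false discovery rate of 0.05 or less covered 23.9 kb of the run (53.8%) in replicate 2 and 4.27 kb (9.58%) in replicate 1. Footprints numbered 54 and 17. The run was defined from the low peaks of replicate 2, so more entries there in replicate 2 follow from its choice. Peaks, cut-rate intervals and footprints were called from the same alignments, so they are not separate support for a difference.

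In Grin2b a smaller run lay in replicate 1, at chr6:136050521-136075640 within an intron, 97.9 to 123 kb from the 5′ end. It held 16 peaks in replicate 1 and 1 in replicate 2, with 15 low ones from 0.0788 to 0.315 (median 0.223), and was the 38th of 93 runs in that replicate. Of the 16, 13 (81.2%) overlapped the stricter list, beside 59.2% of all peaks and 16.7% of all low peaks of replicate 1. Intervals at a false discovery rate of 0.05 or less covered 6.5 kb in replicate 1 and 0.092 kb in replicate 2, with 10 and 0 footprints. This run was defined from the low peaks of replicate 1, so here too the direction follows from its choice. Outside the run Grin2b had 28 and 17 peaks (37.8% in replicate 2), a 1.65-fold excess of replicate 1 that lies under 2-fold and within the 5th to 95th percentile of all genes. Outside the run 15 of the 28 (53.6%) and 15 of the 17 (88.2%) were shared, beside 72.3% and 84.1% over the genome. In replicate 1 the shared part of Grin2b peaks was thus below that of the genome even without the run. Unshared Grin2b peaks of replicate 1 outside the run were up to 0.886 high, at 373 kb.

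The Grin2a run had 41.9% G or C and 30.5% repeat-masked bases, beside 43.6% and 23.9% in the whole Grin2a region. The Grin2b run had 42.4% and 20.04%, beside 43.4% and 18.1%. Over the genome the 2 replicates had 93 and 72 such runs, of which 25 and 24 overlapped a run of the other replicate, and they held 4.29% and 4.58% of all low peaks. Whether depth, read mapping or repeats have a part in these runs was not tested.

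In Grin1 the excess was of another kind. The 9 unshared peaks of replicate 2 had heights of 0.542 to 0.801, none under 0.4, and no run of low peaks crossed the gene. Several lay over the last exons and the 3′ UTR, the tallest (0.801) over a coding exon 26.7 kb from the 5′ end, and others in introns about 14 and 15 kb in (0.781 and 0.717). Of the 9, 2 had bases in the listed cut-rate intervals of replicate 1. The lowest Grin1 peak of replicate 1 was 1.08, so replicate 2 had a band of low to middling peaks that replicate 1 lacked. In the gene body plus 50 kb the numbers were 25 and 29, a share of 53.7%, so the imbalance was seen close to Grin1 and not in its wider surroundings.

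Among genes outside these regions, those with peak densities nearest to Grin2a in the 2 replicates were Adcy9 (15 and 32 peaks), Sgk1 (15 and 26) and Slc7a14 (14 and 24). Those nearest to Grin2b were Unc79 (24 and 9), Rhbdd1 (14 and 6) and Nedd9 (16 and 8). Likeness was the distance between log2 peaks per 10 kb (plus 0.1) over both replicates, and these genes were chosen by that density, so their imbalance is a description.

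The promoters of 4 lists of genes around the receptor were examined, beside the 62.6% of all protein-coding genes open in both replicates. All 13 genes for postsynaptic scaffold and trafficking had a promoter peak in both replicates, with a median height of 2.20. The tallest were Lin7c, a PDZ adaptor (5.60 and 4.27), Dlg2, which encodes PSD-93 (1.33 and 7.56), Kif17, a kinesin that carries GluN2B (3.76 and 2.69), and Dlg4, which encodes PSD-95 (3.81 and 2.26). The Dlg2 values were far apart. Dlg4 had 19 peaks in replicate 1 and 9 in replicate 2. It was 1 of 9 genes of this list with at least 20 peaks, and the only one past 2-fold. Towards replicate 1, 5.84% of all genes with that many peaks passed 2-fold. In the other pathway lists 2, 8 and 10 genes had that many peaks, and none passed it.

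All 13 kinases and phosphatases that act on or after the receptor were also open in both replicates, with a median height of 3.94. The tallest were Cdk5, a kinase active in neurons (13.2 and 9.94), Ppp3ca, a catalytic subunit of calcineurin (12.5 and 9.99), and the tyrosine kinases Fyn (7.44 and 5.27) and Src (5.43 and 5.59), which phosphorylate GluN2 subunits. Of the 8 genes for the supply of glycine and D-serine, 6 were open in both, near the share over all genes. Srr, the serine racemase that makes D-serine, had 4.83 and 2.82, Shmt2 had 2.99 and 2.82, the glycine transporter gene Slc6a9 had 3.42 and 1.27, and Phgdh, for serine synthesis, had 1.60 and 1.23. Dao, which encodes the oxidase that degrades D-serine, had no promoter peak, and Slc6a5, the glycine transporter of glycinergic neurons, had one in replicate 2 alone (0.297).

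The other ionotropic glutamate receptor genes, of the AMPA, kainate and delta families, had 11 of 11 promoters open in both replicates, with a median height of 1.38 beside 2.04 for the 5 open NMDA receptor promoters. The tallest were Gria2, the AMPA subunit that limits calcium entry (4.33 and 3.37), Grik4 (3.16 and 3.18), Grik2 (2.81 and 2.80) and Gria1 (2.07 and 2.05). Grin1 lay between Gria2 and Grik4 in replicate 1 and below both in replicate 2.

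As a check of the tissue label, promoters of 5 of 5 excitatory neuron markers, 5 of 5 markers of hippocampal fields, 3 of 6 inhibitory neuron markers, 5 of 5 astrocyte, 4 of 5 oligodendrocyte, 1 of 4 microglial and 1 of 3 endothelial markers were open in both replicates. Of the cerebellar markers, Gabra6 and Pcp2 had no promoter peak and Cbln1 had one (2.61 and 1.74). With 62.6% of all protein-coding genes open in both replicates, and Cbln1 among them, an open marker promoter does not by itself show that a cell type was present. The part of other cell types in the heights of the receptor genes was not tested. Median peak height was 0.643 and 0.639 in the 2 replicates, equal to 98 and 99 of the smallest steps between heights.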

How the data were processed

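DNase-seq was analysed in 2 samples of 1 group. Per the file descriptions deposited with each sample, the peaks, footprints and cut-rate intervals were called separately in each sample from its own alignments to mm10. The names of the aligner and the callers were not given in the sources used here. The authors deposited 2 peak lists per sample, whose height (unit: signal) has no stated scale, and the longer list was used. They also deposited a false discovery rate of the local cut rate (a q-value, listed up to 0.05) and footprints that all carry 0.01, taken here for a threshold on a p-value or q-value. Each height under 1 was, within 0.1 step, a whole multiple of 1 step (0.00656 in replicate 1 and 0.00646 in replicate 2). Read depth is not analysed here. Lists could hold overlapping peaks, which 6 of 121 and 12 of 153 member peaks were.

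A peak was counted in a gene where it overlapped the gene body plus 10 kb, and as shared where it overlapped a peak of the other replicate by 1 bp or more. Heights were compared between peaks that were each other's best overlap. Pairing was tested on 20000 simulated peaks, where 14000 of 14000 planted pairs were found. Gene models were GENCODE M21 and promoter sequences RefSeq (GRCm38.p6). The tools were bedtools 2.31.1, samtools 1.23.1, Python 3.11.15, numpy 2.4.6, pandas 2.3.3, scipy 1.17.1 and matplotlib 3.10.9.

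The members, lists and motifs were chosen with earlier results of these data known. The text names all 7 members, for each pathway list up to 4 genes by promoter height and up to 2 that lack a promoter peak, the 3 genes nearest in peak density to Grin2a and to Grin2b, and the tallest shared and unshared peaks of the members. There was 1 group, so conditions could not be tested and no p-value was computed. Alternatives covered the peak list, flanks, windows, height, overlap, scaling and each replicate left out.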

Additional observations from a re-analysis of the deposited data

How the results depend on the processing

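The share of Grin2a peaks in replicate 2 was 66.4%, and it fell below 50% in 3 alternatives. It was 44.4% with only peaks at or above the median height of their list. With peaks of height 0.4 or more it was 45.7%, and without runs of low peaks 45.3%, these last 2 chosen after seeing the data. The median gene was at 46.2% over peaks of all heights and 46.5% over peaks of height 0.4 or more. In these 3 alternatives Grin2a thus lay near the median gene. The Grin2a share was 66.0 to 71.0% with the stricter peak list, the gene body alone, flanks of 50 kb and equal peak numbers. The share of Grin2b moved from 29.0% to 43.2% with peaks at or above the median height, beside 46.2% for the median gene over peaks of all heights. Its excess in replicate 1 was under 2-fold in 4 of 7 alternatives: 1.31-fold in that one, 1.72-fold with equal peak numbers, 1.61-fold with height 0.4 or more and 1.65-fold without runs of low peaks. The mean number of peaks in the members was 137, and it was 88.5 with the stricter list, 88.0 with height 0.4 or more and 90.5 without runs of low peaks. With each replicate left out in turn it was 121 to 153. The number of members with a promoter peak in both replicates was 4 with a window of 500 bp, where Grin2d dropped out, and 5 otherwise. The median height ratio of shared peaks was below 0 in every alternative, and -0.21 without scaling. No paired analysis was possible because the study has 1 group. The height scale and the depth are unknown, so a peak missing in 1 replicate may be one that its depth could not show. Mapping of CAST/EiJ reads was not analysed here.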

Other observations

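Values not described above concern peaks found in 1 replicate. The tallest such peak of Grin2a outside its promoter was 0.696 in replicate 1 and 0.639 in replicate 2, both in introns, and that of Grin2b in replicate 2 was 0.588, over the 3′ UTR. The tallest peak of Grin2d found in replicate 2 alone was 0.620 high, over a coding exon. In Grin3a the tallest unshared peak was 0.381 in replicate 1, over the 3′ UTR, and 0.278 in replicate 2, in an intron. In Grin3b it was 0.549 in replicate 2, downstream of the gene. In Grin3a 7 of 11 peaks of replicate 1 and 6 of 9 of replicate 2 were under 0.4, yet 8 peaks of each replicate were shared. Among the shared ones was an intronic pair of neighbours about 104 kb into the gene, of heights 0.335 and 0.328 in replicate 1 and 0.252 and 0.362 in replicate 2. Of the low Grin3a peaks, 4 of 7 in replicate 1 and 5 of 6 in replicate 2 were shared, beside 38.3% and 59.1% of all low peaks.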
